A study of Mus musculus with 6 samples.

Results

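The insulin-like growth factor (IGF) system was described through 10 genes given by symbol: the ligands Igf1 and Igf2, the receptors Igf1r and Igf2r, and the binding protein genes Igfbp2 to Igfbp7. Of these 10, 7 have a row among the 25189 gene symbols of the count table, and Igf2, Igfbp3 and Igfbp5 were not analysed here. The 6 RNA libraries come, per their labels, from kidneys of male C57BL/6 mice of wild-type genotype, taken at day 2, and the labels give no age. All 6 had ischaemia and reperfusion (I/R), in which the blood flow of the kidney is stopped and restored. In 3 of them I/R was the only treatment, and the other 3 also had chemerin-9, a short peptide from the end of the secreted protein chemerin that activates the chemerin receptor. No sham or untreated kidney is among the samples. The columns read here as chemerin-9 carry the letters IC, while the labels of these samples name columns with the letter S in another table. The labels thus do not settle which columns hold the chemerin-9 samples, and every direction below rests on reading IC as I/R with chemerin-9. The genes were chosen by the rise of Igf1 in this very comparison and by their place in the same system, so their own differences are given as a description and not as a test.

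IGF1 and IGF2 are small secreted hormones that resemble insulin and act on the IGF1 receptor, a tyrosine kinase that signals through the PI3 kinase and AKT pathway and the MAP kinase pathway to promote growth and survival. Most IGF outside cells is held by binding proteins, which are released from their ligand when proteases cut them. The receptor encoded by Igf2r sends no such growth signal but takes up IGF2 for breakdown and carries enzymes tagged with mannose-6-phosphate to the lysosome. In the kidney, IGF1 is known for effects on filtration, tubule growth and repair after injury.

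The libraries held 11217252 to 16938301 counts. I/R replicate 3 differed most from its group: the chi-square of its counts, divided by the degrees of freedom, was 6.14 and 5.61 against the remaining I/R libraries, and 1.81 to 2.24 for all other pairs within a group. The labelled tissue was checked against marker genes. Of 25 nephron markers 12 had a row, and their summed level was 84.03 to 85.7 CPM (counts per 1000000 of the scaled library) in I/R against 67.1 to 78.1 CPM in the chemerin-9 group, most of it from Pax8 and Aqp1. Defining markers were at or near 0, with the collecting duct channel gene Aqp2 at 0 to 0.174 CPM. Genes of dividing cells summed to 5821 to 6091 CPM over 16 genes. The labels give every library a different batch date, so batch and treatment cannot be told apart. Nothing in the labels says that each library came from its own animal, so the errors below measure only the spread between these libraries. That spread was small: beyond counting error, its common value over all tested genes was 5.18% of the level (edgeR's biological coefficient of variation). Whether it holds the variation between animals was not tested.

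The DNA before the RefSeq start of 5 members is shown first, as a description. Any link between these sequences and the changes below was not tested. The sequences are from RefSeq on GRCm38.p6, run 5′ to 3′ on the gene's strand and end just before the RefSeq start. For Igf1r (67952257), Igfbp6 (102144186) and Igfbp7 (77408045, minus strand) that start lies upstream of the gene start of the count table (67952827, 102144362 and 77408041). Their windows thus end short of the latter, and positions are counted from the RefSeq start. Capitals mark matches on either strand. The letters searched were GGGCGG for the GC box, TATAAA for the box of that name and CCAAT. The first is the receptor gene, whose 250 bases lie at chr7:67952007-67952256, plus strand, with a GC content of 77.6% and GC boxes at positions -43 and -26 from the start.
Igf1r: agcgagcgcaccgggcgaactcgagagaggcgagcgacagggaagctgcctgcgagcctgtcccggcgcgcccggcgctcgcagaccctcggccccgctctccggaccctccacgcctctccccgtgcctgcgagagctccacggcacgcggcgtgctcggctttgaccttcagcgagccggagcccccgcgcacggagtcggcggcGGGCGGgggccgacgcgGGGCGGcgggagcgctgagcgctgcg
The binding protein gene Igfbp7, at chr5:77408046-77408295, minus strand, has a GC content of 74.0% and 4 GC boxes.
Igfbp7: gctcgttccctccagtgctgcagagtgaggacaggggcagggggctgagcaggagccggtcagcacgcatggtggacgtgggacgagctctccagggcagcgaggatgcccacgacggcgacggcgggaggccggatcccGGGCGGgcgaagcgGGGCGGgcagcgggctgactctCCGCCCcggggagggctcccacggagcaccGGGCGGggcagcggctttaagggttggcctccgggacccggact
Igfbp4, at chr11:99040994-99041243, plus strand, has a GC content of 69.2%, no GC box and a TATA box at positions -28 to -23.
Igfbp4: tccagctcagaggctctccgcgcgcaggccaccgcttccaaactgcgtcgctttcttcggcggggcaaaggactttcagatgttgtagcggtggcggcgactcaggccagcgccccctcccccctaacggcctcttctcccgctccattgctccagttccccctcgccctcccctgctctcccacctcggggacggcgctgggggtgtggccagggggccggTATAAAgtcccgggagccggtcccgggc
Igfbp6, at chr15:102143936-102144185, plus strand, is the poorest in GC of these, at 49.6%, with 2 CCAAT matches and a TATA match that lies far from the start, at -148 to -143.
Igfbp6: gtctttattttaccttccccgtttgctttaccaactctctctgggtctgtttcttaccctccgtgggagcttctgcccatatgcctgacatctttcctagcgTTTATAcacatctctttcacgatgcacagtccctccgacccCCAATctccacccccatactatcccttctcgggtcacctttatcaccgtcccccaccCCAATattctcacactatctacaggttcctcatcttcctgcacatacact
The RefSeq start of Igf1 lies inside an exon of longer GENCODE transcripts, so only 30 bases around its single match are shown, at chr10:87860957-87860986, plus strand (positions -154 to -125 from that start, where the match reads as CCAAT on the other strand).
Igf1: ctgcctagagcgATTGGtacacacagggcg
The whole 250-base window of Igf1 has a GC content of 52.8%, close to the median of 52.4% over 32851 promoter windows, while that of Igf1r exceeds 97.7% of them. A GC box occurs in 32.7% of all windows, a TATA box in 12.4% and a CCAAT match in 33.9%. None of these 5 windows holds a match to GTAAACA (a core of FOXO sites, in 3.17% of all windows), to TTCNNNGAA (a core of STAT sites, in 7.02%) or to TTGCNNAA (a core of C/EBP sites, in 9.56%), which says only that these letters are absent there. Overlapping matches were counted separately.

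Of the 7 genes with a row, 6 passed the filter on low counts and Igfbp2 did not. Read from the edgeR fit over all genes, 5 of these 6 were past a Benjamini-Hochberg adjusted p of 0.05, 3 higher with chemerin-9 (Igf1, Igfbp4 and Igfbp7) and 2 lower (Igf1r and Igfbp6). Across all 14184 genes tested, 51.7% were past that threshold, with 25.6% higher and 26.1% lower, so a call by itself is common in this comparison. Of all calls 49.6% were higher, or 60.7% with total counts in place of size factors. The same 5 genes had no overlap between the 3 I/R and the 3 chemerin-9 values, against 58.5% of all tested genes. Because the genes were chosen with this comparison known, nothing is read from these counts. These are bulk samples, in which more cells of a type and more RNA per cell cannot be told apart.

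**Figure D1:**
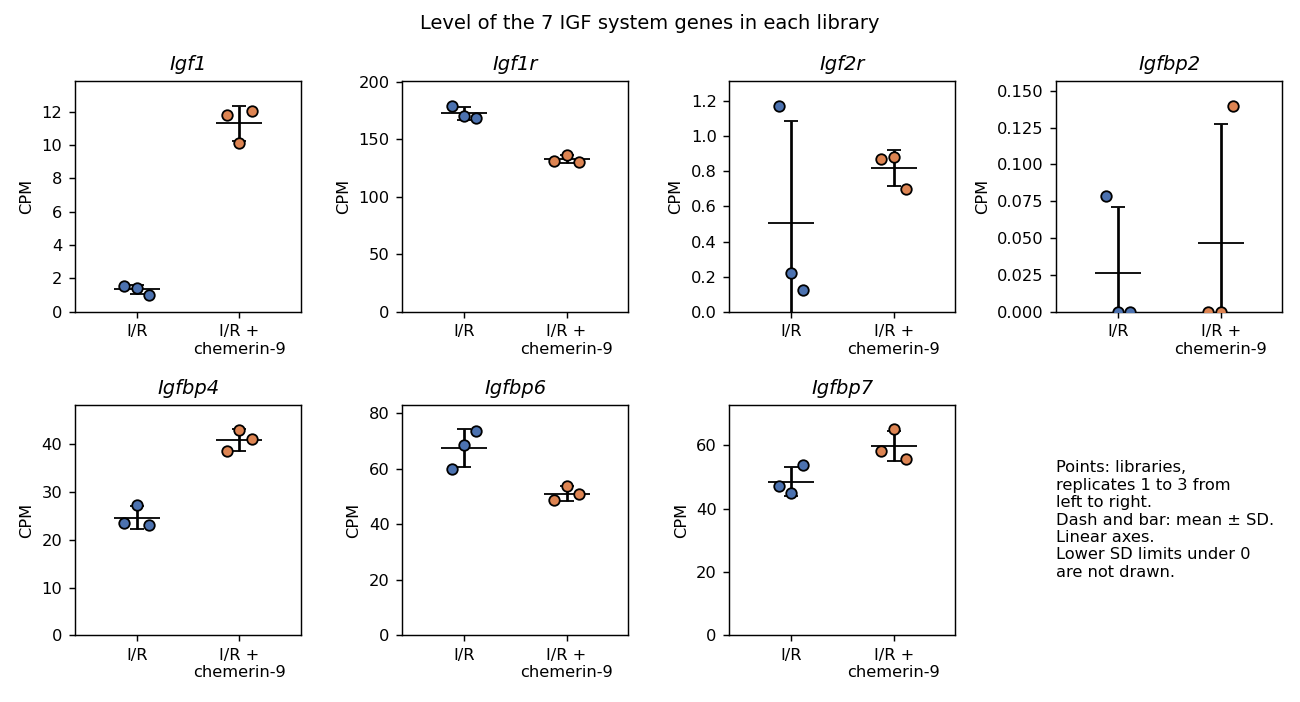
Level of each of the 7 genes (CPM, linear axis from 0) in the 3 I/R libraries and the 3 libraries of I/R with chemerin-9; dashes and bars are mean ± SD. The groups are apart for Igf1, Igf1r, Igfbp4, Igfbp6 and Igfbp7 and overlap for Igf2r and Igfbp2.

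Igf1, the ligand gene (ENSMUSG00000020053, chromosome 10, 87858265 to 87937042, plus strand, GRCm38), was weakly expressed in I/R and several times higher with chemerin-9. Igf1 was at 1.57, 1.41 and 1.03 CPM in I/R replicates 1 to 3 and 11.8, 10.1 and 12.03 CPM in the chemerin-9 replicates. The lowest chemerin-9 library was thus 6.45 times the highest I/R library. Behind these levels stand few reads: 20, 19 and 17 counts for the I/R libraries, and 135, 137 and 172 for the chemerin-9 ones. At such counts the spread is close to counting error: the coefficient of variation was 20.6% in I/R, where counting alone gives 23.1%, and 9.28% with chemerin-9, where it gives 8.22%. The fitted log2 fold change was 3.09 (standard error 0.19), an 8.53-fold difference. By fitted rise it ranked 9 from the top of the 14184 genes tested. Without I/R replicate 3, the library that stood apart, the log2 fold change was 2.91. The counts are per gene, so which of the transcripts or start sites of Igf1 contributed was not measured.

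The receptor gene Igf1r (ENSMUSG00000005533, chromosome 7, 67952827 to 68233668, plus strand) went the other way and was among the well-measured members. Its level was 179, 170 and 169 CPM in I/R and 131, 137 and 130 CPM with chemerin-9. The groups were separate, with the highest chemerin-9 library below the lowest I/R library. The mean went from 172.5 ± 5.70 to 132.6 ± 3.45 CPM (SD, n = 3 each), a log2 fold change of -0.38 (standard error 0.04) or 1.30-fold lower. The change was smaller in size than that of Igf1, and its size stood at percentile 64.2 of all tested genes.

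Igf2r, which encodes the IGF2 and mannose-6-phosphate receptor (ENSMUSG00000023830, chromosome 17, 12682406 to 12769664, minus strand), was near the detection floor. Only 15, 3 and 2 reads were counted in the I/R libraries, against 10, 12 and 10 in the chemerin-9 libraries. A single I/R library, replicate 1, carried most of the I/R counts and was above every chemerin-9 library, so the groups overlapped. The log2 fold change was 0.77 with a standard error of 0.61, and Igf2r was the tested member that did not pass. Without I/R replicate 1 it was 2.22 and past the threshold, and without I/R replicate 3 it was 0.24, so the value rests on single libraries. The antisense transcript Airn, which overlaps the Igf2r locus and silences the paternal copy of Igf2r in many tissues, lay at 0 to 0.425 CPM over the 6 libraries and was under the filter.

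Among the binding protein genes, Igfbp4 showed the widest separation. IGFBP4 holds IGFs away from their receptor and is cut by the protease PAPP-A. Igfbp4 (ENSMUSG00000017493, chromosome 11, 99041244 to 99054392, plus strand) was at 23.5, 27.3 and 22.9996 CPM in I/R and at 38.5, 42.96 and 40.99 CPM with chemerin-9. Every chemerin-9 library was at least 1.41 times the highest I/R library. The log2 fold change was 0.73 (standard error 0.08), or 1.66-fold.

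Igfbp6 (ENSMUSG00000023046, chromosome 15, 102144362 to 102149511, plus strand), whose product binds IGF2 in preference to IGF1, was lower with chemerin-9. It stood at 60.1, 68.7 and 73.5 CPM in I/R and at 48.6, 53.9 and 50.8 CPM with chemerin-9. The groups did not overlap, but the I/R libraries spread widely, with a coefficient of variation of 10.04% where counting alone gives 3.21%. The log2 fold change was -0.40 (standard error 0.07), or 1.32-fold lower. With the trend of each library on GC content and transcript length removed, it was -0.19 and still past the threshold.

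Igfbp7 (ENSMUSG00000036256, chromosome 5, 77349240 to 77408041, minus strand), which encodes a secreted protein with weak affinity for IGFs that is also known as a marker of kidney tubule stress, was higher with chemerin-9. It lay at 47.1, 44.8 and 53.8 CPM in I/R and at 58.2, 64.998 and 55.8 CPM with chemerin-9. The groups only just separated, the lowest chemerin-9 library being 1.04 times I/R replicate 3. The log2 fold change was 0.29 (standard error 0.07), and it was 0.48 with the GC and length trend removed. Exons of Igfbp7 overlap those of Polr2b on the other strand, and although the library kit keeps strand, no label says whether the counting used it, so reads of the pair may not be separate. Polr2b itself was more abundant and moved the same way, from 175.7 ± 8.76 to 197.6 ± 5.15 CPM (log2 fold change 0.17, edgeR adjusted p = 0.0034). The part of its reads in the Igfbp7 values was not tested.

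Igfbp2 (ENSMUSG00000039323, chromosome 1, 72824503 to 72852474, plus strand), a binding protein gene typical of fetal tissue and liver, was barely detected. Counts of 1, 0 and 0 were found in the I/R libraries, and of 0, 0 and 2 in the chemerin-9 libraries. All libraries were below the 3 counts that a count of 0 still allows (0.182 to 0.261 CPM per library), so no fold is given. Among GENCODE M21 transcripts none of the 7 genes with a row has a near copy, meaning 95% identity or more along 50% or more of its length.

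**Figure D2:**
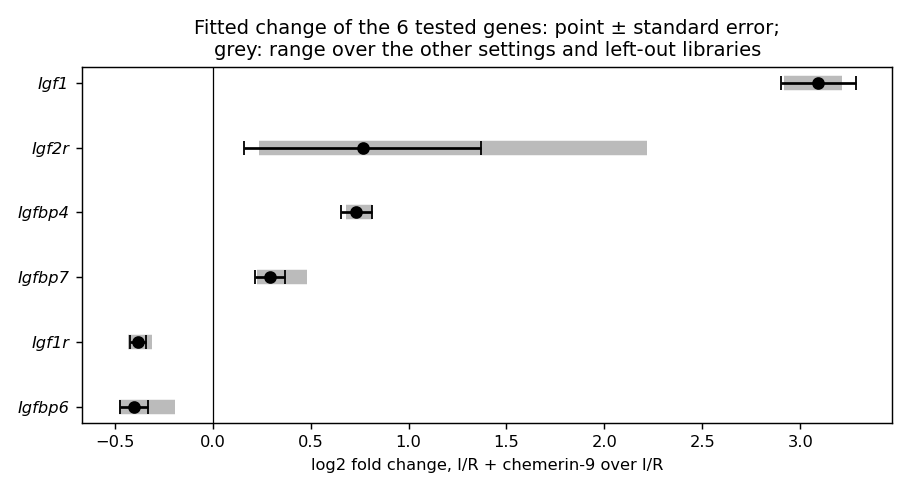
Fitted log2 fold change (I/R with chemerin-9 over I/R) of the 6 tested genes, with its standard error as a bar and, in grey, its range over the other processing settings and left-out libraries. Igf1 lies at 3.09, Igfbp4 at 0.73, and only Igf2r has a standard error as large as 0.61.

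The authors' deposited table gives the same directions for the 6 tested genes, from the same libraries, so it is no independent check. In the authors' deposited table the log2 fold change is 3.09 for Igf1, -0.38 for Igf1r, 0.73 for Igfbp4, -0.41 for Igfbp6 and 0.29 for Igfbp7. For Igf2r and Igfbp2 the authors' deposited table lists an FDR of 0.53 and 1.

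Levels were compared between genes per length, as the CPM divided by the kilobases of the gene's joined exons (RPKM). In I/R the order from high to low was Igfbp6 (60.7 ± 6.09 RPKM), Igfbp7 (40.2 ± 3.89), Igf1r (10.3 ± 0.339), Igfbp4 (5.57 ± 0.539), Igf1 (0.135 ± 0.0278), Igf2r (0.0544 ± 0.0624) and Igfbp2 (0.0141 ± 0.0245; SD, n = 3 each). Of these neighbours, only Igf1 with Igf2r and Igf2r with Igfbp2 were within their spread. In the chemerin-9 libraries, 2 neighbouring pairs changed places. Igfbp7 (49.4 ± 3.94 RPKM) then came before Igfbp6 (45.97 ± 2.40), with values that overlapped across libraries. Within each chemerin-9 library Igfbp6 was 0.902 to 0.989 times Igfbp7, against 1.39 to 1.67 times in I/R. Igfbp4 (9.24 ± 0.504) came before Igf1r (7.90 ± 0.205), with separate values. The second exchange depended on the gene length used. With the longest transcript in place of the joined exons, Igf1r (11.6 RPKM) stayed above Igfbp4 (10.7 RPKM) with chemerin-9.

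The 4 binding protein genes with a row changed in make-up, and their sums overlapped between the groups; Igfbp3 and Igfbp5 are not in these sums. The summed level was 98.3, 105.05 and 115.8 RPKM in I/R and 100.6, 112.001 and 101.2 RPKM with chemerin-9. In it, lower Igfbp6 stood beside higher Igfbp7 and Igfbp4 (log2 fold changes -0.40, 0.29 and 0.73). With GC and length trends taken out these were -0.19, 0.48 and 0.81, and the sum was not made in that setting. Within the sum, Igfbp6 held 54.98%, 58.8% and 57.1% in I/R and 43.5%, 43.3% and 45.1% with chemerin-9. The share of Igfbp6 was thus lower in every chemerin-9 library, while that of Igfbp4 was higher in each, at 8.67% to 9.17% against 4.50% to 5.89%. Igfbp7 made up between 35.3% and 39.6% in I/R, and between 45.6% and 48.0% in the chemerin-9 libraries. The ligand stayed far below its binding proteins and receptor. Per 100 RPKM of binding protein RNA there were 0.0899 to 0.161 RPKM of Igf1 in I/R and 0.910 to 1.20 RPKM with chemerin-9. Igf1r exceeded Igf1 by 67.4 to 96.4 times in I/R and by 6.40 to 7.98 times with chemerin-9. These ratios combine the differences already given and are RNA levels, not amounts of protein.

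**Figure D3:**
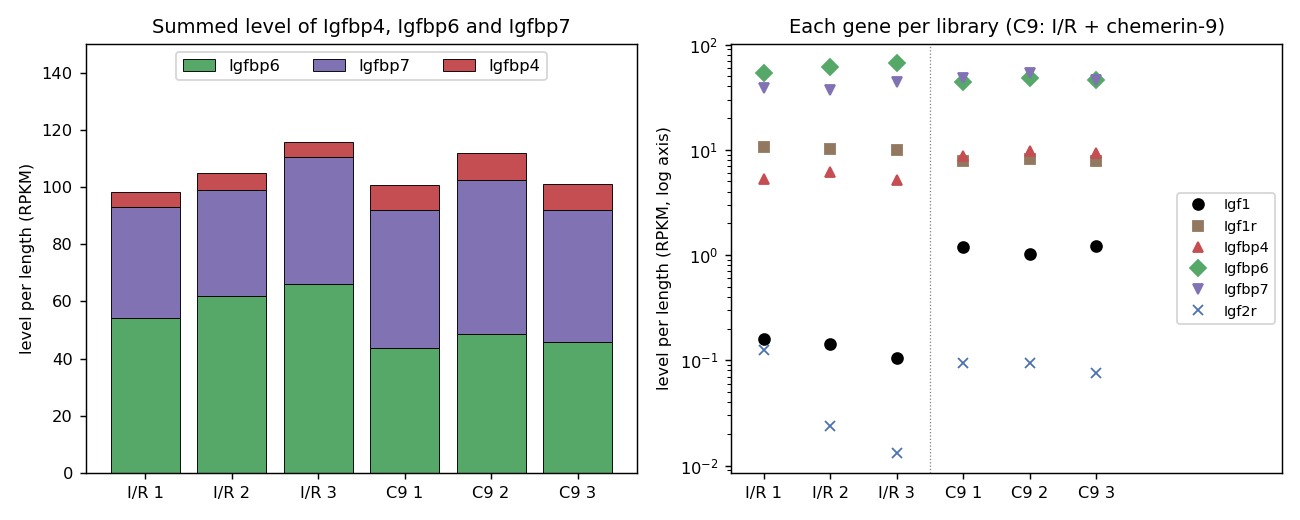
Left, level per length (RPKM) of Igfbp4, Igfbp6 and Igfbp7 stacked for each library; right, each gene per library on a log axis (C9 is I/R with chemerin-9; Igfbp2, at 0 in 4 libraries, is left out). The stacks have overlapping heights in the groups (98.3 to 115.8 and 100.6 to 112.001 RPKM), while the Igfbp4 part is larger in the chemerin-9 libraries.

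The partners that release or compete for IGFs were called about as often as all genes. Of 27 listed partners, related receptors and IGFBP proteases, 17 had a row and 15 were tested. Of these, 5 were higher and 3 lower with chemerin-9, or 53.3% called against 51.7% of all tested genes, with a median log2 fold change of -0.045 against -0.0037. Stc2, whose product stanniocalcin-2 blocks the IGFBP4 protease PAPP-A, rose from 28.03 ± 0.995 to 47.2 ± 1.27 CPM (SD, n = 3 each; log2 fold change 0.75, edgeR adjusted p = 1.7e-07). Pappa itself was not analysed here. Htra1, a secreted serine protease that can cut IGFBP5, fell from 229 ± 4.82 to 165 ± 2.00 CPM (edgeR adjusted p = 5.4e-08), and its weakly expressed relative Htra3 rose from 0.341 ± 0.133 to 1.02 ± 0.144 CPM (edgeR adjusted p = 0.0090). M6pr, the smaller of the mannose-6-phosphate receptors, fell from 179 ± 5.10 to 139 ± 2.49 CPM (edgeR adjusted p = 1.6e-06). Lrp1, a large endocytic receptor reported to bind IGFBP3, rose by 0.23 on the log2 scale and Plat, the tissue plasminogen activator, by 0.56. The insulin receptor gene Insr, named after its values were seen, was at 119 ± 3.96 and 118.8 ± 1.96 CPM, a log2 fold change of -0.0017 (standard error 0.04). With the GC and length trend removed 4 of the 15 were higher and 5 lower.

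The growth hormone axis, which drives Igf1 transcription in liver through the growth hormone receptor, JAK2 and STAT5, had few calls. Of 19 listed genes 16 had a row and 15 were tested, of which 2 rose and 2 fell, or 26.7% against 51.7% of all tested genes (median log2 fold change -0.090). Ghr, the receptor gene, named after its values were seen, was at 80.4 ± 4.29 and 84.1 ± 2.54 CPM (log2 fold change 0.07, standard error 0.05), and Stat5b, likewise, at 67.5 ± 4.66 and 68.2 ± 3.38 CPM. Neither passed (edgeR adjusted p = 0.28 and 0.83). Ptpn2, a phosphatase that acts on JAK kinases, rose from 59.2 ± 2.32 to 85.5 ± 1.67 CPM (edgeR adjusted p = 4.8e-07). The adaptor gene Sh2b3, a brake on JAK2, fell from 32.97 ± 1.09 to 25.7 ± 0.488 CPM (edgeR adjusted p = 5.6e-04). Jak2 rose by 0.17 on the log2 scale (edgeR adjusted p = 0.042), and Socs2, a STAT5 target that damps growth hormone signalling, fell by 0.17 (edgeR adjusted p = 0.029). Ptpn6 (0.37) and the transcription factor gene Cebpb (-0.29) did not pass. Cebpb passed without I/R replicate 2 (adjusted p = 0.017) and was at -0.05 with the GC and length trend removed (0.77), where Ptpn6 passed (0.049). Jak2 kept its call in only 9 of 17 alternatives; it failed DESeq2 (adjusted p = 0.057), removal of the GC and length trend (0.28, log2 fold change 0.07) and the loss of I/R replicate 2 (0.050), of I/R replicate 3 (0.23) or of any one chemerin-9 library (0.095 to 0.10). Socs2 failed DESeq2 (0.094), total counts (0.17), the fit with no filter (0.054) and the loss of I/R replicate 1 (0.057), I/R replicate 2 (0.071), chemerin-9 replicate 2 (0.094) or chemerin-9 replicate 3 (0.057). The list had 2 calls in place of 4 with DESeq2 and without chemerin-9 replicate 2, and 4 higher and 1 lower with total counts.

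Downstream of the receptor, adaptor, kinase and phosphatase genes had calls in both directions. Of 52 listed genes 49 were tested, of which 15 rose and 14 fell, or 59.2% called against 51.7%, with a median log2 fold change of 0.0076. Inppl1, which encodes the lipid phosphatase SHIP2 that removes the product of PI3 kinase, fell from 145 ± 5.09 to 94.3 ± 4.995 CPM (SD, n = 3 each; edgeR adjusted p = 6.3e-08). The kinase gene Mapk3 (ERK1) fell from 123 ± 1.181 to 87.4 ± 4.40 CPM (edgeR adjusted p = 4.0e-07). Rack1, a scaffold that binds the IGF1 receptor and the ribosome, fell by 0.33 on the log2 scale. Ptpn11, the phosphatase SHP2 that carries receptor signals to RAS, rose from 324 ± 8.40 to 416 ± 3.30 CPM (edgeR adjusted p = 3.4e-07). Rps6kb1, which encodes the S6 kinase downstream of mTOR, rose from 125.6 ± 11.3 to 175.9 ± 7.15 CPM (edgeR adjusted p = 4.4e-06). The insulin receptor substrate genes Irs1 and Irs2, named after their values were seen, did not pass, with log2 fold changes of 0.17 and -0.11 (edgeR adjusted p = 0.098 and 0.29). With total counts in place of size factors 21 of the 49 were higher and 9 lower.

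FOXO factors are transcription factors that AKT keeps out of the nucleus when the receptor is active, and the list held 4 factor genes beside genes often named as their targets. Of 30 listed genes, factors included, 26 were tested, of which 4 rose and 14 fell, or 69.2% called against 51.7%, with a median log2 fold change of -0.23 against -0.0037 over all tested genes. Foxo4 fell from 60.9 ± 2.93 to 35.2 ± 0.849 CPM (SD, n = 3 each; edgeR adjusted p = 5.4e-08). Fbxo32, the ubiquitin ligase gene of muscle wasting, fell from 23.2 ± 2.93 to 11.1 ± 1.31 CPM (edgeR adjusted p = 2.8e-06), and Ccng2, a cyclin gene linked to cell cycle arrest, from 94.9 ± 2.65 to 51.1 ± 2.22 CPM (edgeR adjusted p = 3.3e-09). Cited2, a brake on hypoxia signalling, fell by 0.62 on the log2 scale. Other listed targets went up. Txnip, an inhibitor of thioredoxin and glucose uptake, rose from 21.9 ± 1.63 to 38.6 ± 2.39 CPM (edgeR adjusted p = 7.3e-07), and the sestrin gene Sesn3 rose by 0.46 on the log2 scale. Foxo1, named after its values were seen, was at 26.5 ± 1.70 and 28.6 ± 3.07 CPM and did not pass (edgeR adjusted p = 0.31). The number called depended on the setting. With total counts in place of size factors 4 were higher and 10 lower, where 51.9% of all tested genes were called. DESeq2 also gave 4 higher and 10 lower, where 44.5% of all were called. With the GC and length trend removed 5 were higher and 15 lower, where 52.3% of all were called. The list holds genes with many other regulators, and FOXO or AKT activity was not measured.

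Regulators of IGF RNA and imprinted genes of the network around Igf2 were mostly not analysed here, with 12 of 21 having a row and 7 tested. Of these 7, 3 rose and 2 fell, or 71.4% called against 51.7% of all tested genes (median log2 fold change 0.15). The split was 4 higher and 1 lower with total counts, and 2 and 3 once GC and length trends were taken out. Mest, an imprinted gene expressed from the paternal copy like Igf2, rose from 1.08 ± 0.229 to 2.97 ± 0.568 CPM (SD, n = 3 each; edgeR adjusted p = 7.7e-04). Ctcf, which encodes the insulator protein of the Igf2 and H19 locus, rose from 114 ± 6.77 to 137.7 ± 6.59 CPM (edgeR adjusted p = 3.8e-04), and the imprinted gene Peg3 fell by 0.25 on the log2 scale. The genes of the IGF2 mRNA-binding proteins, which are typical of fetal and dividing cells, were at 144 ± 4.61 and 129.9 ± 3.37 CPM for Igf2bp1, 101 ± 1.34 and 93.8 ± 5.85 CPM for Igf2bp2 and 8.37 ± 0.635 and 10.4 ± 0.213 CPM for Igf2bp3. Igf2bp1 fell (edgeR adjusted p = 0.0069), a call lost with total counts only (0.12), and Igf2bp2 did not pass (0.070), although it did once GC and length trends were taken out (0.026, or 0.025 with the replicate block as well) and when I/R replicate 3 (0.039) or the second chemerin-9 library (0.017) was left out. Igf2bp3 rose (0.045), a call that did not hold in 11 of its 17 alternatives (adjusted p = 0.051 to 0.13 in those), among them DESeq2 and the replicate block.

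**Figure D4:**
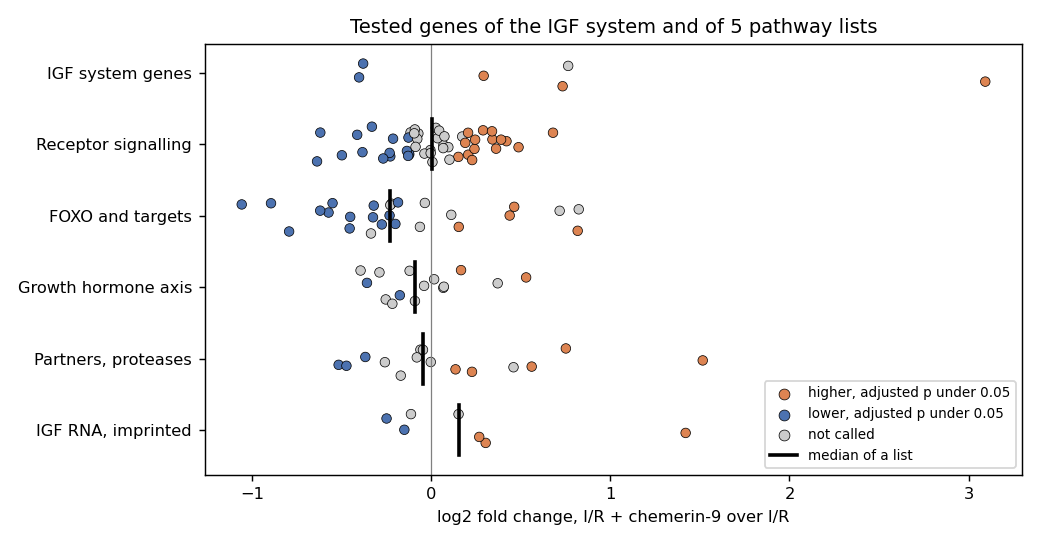
Fitted log2 fold change (I/R with chemerin-9 over I/R) of each tested gene of the IGF system and of the 5 lists around it; orange is higher and blue lower at an edgeR adjusted p under 0.05, grey is not called, and the black line is a list's median. Igf1, which was chosen for its rise in this comparison, lies at 3.09, beyond every gene of the lists. The FOXO list has the lowest median, at -0.23.

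Markers of other cell types were read beside Igf1, which macrophages and stromal cells can also make. Of 16 leukocyte markers 5 had a row, whose summed level spanned 4.61 to 6.09 CPM over the I/R libraries and 4.62 to 6.78 CPM over the others, where Lyz2 was at 1.72 ± 0.616 and 1.74 ± 0.152 CPM and S100a8 was at 0 in 4 of the 6 libraries. Of 10 endothelial markers 6 had a row and 2 were tested, of which Flt1 rose and Egfl7 did not pass (edgeR adjusted p = 1.0e-04 and 0.35). The 6 summed to 6.39 to 7.89 CPM in I/R and 11.5 to 13.5 CPM with chemerin-9, mostly through Flt1 (4.81 ± 0.423 and 9.25 ± 1.06 CPM). Pecam1, under the filter, was at 0 to 0.235 CPM in I/R and 0.349 to 0.737 CPM with chemerin-9. Plvap, Tek and Egfl7 also had higher means with chemerin-9, with overlapping groups. Only Cdh5 had a lower mean (0.483 ± 0.165 and 0.389 ± 0.266 CPM). The 14 of 16 fibroblast markers with a row summed to between 5210 and 5294 CPM in I/R, and to between 4398 and 4510 CPM in the other group. These went both ways, as of 11 tested 3 were higher and 4 lower, with a median log2 fold change of 0.01. That is 63.6% called, against 51.7% of all tested genes. The lower sum came mostly from Vim, at 1366 ± 38.3 and 853 ± 21.8 CPM, while Pdgfrb, at 35.1 ± 2.75 and 49.2 ± 1.98 CPM, was among the higher. The part of these cells in the values of Igf1 and its partners was not tested.

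By the smallest root mean square difference of log2 CPM centred on the gene's mean over the 6 libraries, the 5 genes nearest to Igf1 among 11902 compared were Gxylt2 (0.32), Atp6v0a4 (0.36), Il17f (0.40), Tktl1 (0.41) and Fam169a (0.43). Gxylt2, a xylosyltransferase gene, was the most abundant, at 5.72, 6.54 and 5.70 CPM in I/R and 31.7, 32.6 and 34.3 CPM with chemerin-9. Atp6v0a4, a proton pump subunit gene, was at 1.253, 0.966 and 0.668 CPM in I/R and 4.53, 4.94 and 6.16 CPM with chemerin-9. Both showed, like Igf1, 3 low and 3 high libraries with no overlap. Il17f, Tktl1 and Fam169a had 0 to 8 counts in each I/R library and 14 to 40 in each of the others. By Pearson's r among the 219 genes with a log2 range of at least 2, Gxylt2 (0.993) and Atp6v0a4 (0.991) were again among the first 5 and the other 3 were not. Over 6 libraries in 2 groups such likeness mostly restates the group difference, and all 6 points share the same libraries.

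**Figure D5:**
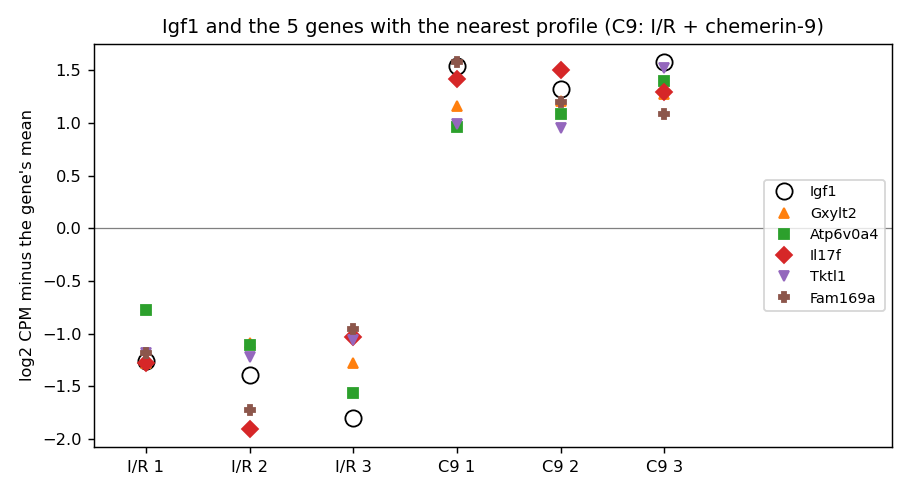
Log2 CPM minus the gene's own mean over the 6 libraries, for Igf1 (open circles) and the 5 genes nearest to it by root mean square difference (0.32 to 0.43). All 6 genes lie below 0 in the I/R libraries and above 0 in the chemerin-9 libraries (C9).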

How the data were processed

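Per the submitters' processing notes, reads were handled with HISAT2, HTSeq and DESeq 1.18.1 on mm10. No label names the gene annotation used or how strand was handled in counting. The deposited table holds the authors' raw counts per gene symbol for 6 libraries, whole numbers with a different total in each. The same deposited table also lists, per gene, a log2 fold change, a ratio and a p-value with its FDR, all by the authors. Of its 25216 rows, 27 repeated a symbol with the same counts and were dropped. Its coordinates are those of GRCm38, as 97.5% of its genes found in GENCODE M21 share the start.

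All genes were fitted together on the deposited counts, by edgeR 4.0.16 under R 4.3.3 (TMM size factors, filterByExpr, quasi-likelihood fit on group, Benjamini-Hochberg adjustment over all 14184 genes tested, threshold 0.05). Standard errors are the log2 fold change divided by the square root of the F statistic. CPM are counts over the TMM-adjusted library size, and RPKM divide these by the joined exon length of GENCODE M21. The procedure was tested on simulated data. Copies were searched with BLAST 2.17.0. Alternatives used limma 3.58.1 and DESeq2 1.42.0, among others.

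The text names the 10 members, the up to 6 tested genes with the smallest p of each list, the 5 genes nearest to Igf1 and a few others marked as such. A gene that this rule names in a list is not reported here. The members and lists were chosen with earlier results of these data known. Groups were taken from titles, since among the chemerin-9 samples the treatment label changes from 1 sample to the next.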

Additional observations from a re-analysis of the deposited data

How the results depend on the processing

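Of the members tested, Igf1, Igf1r, Igfbp4, Igfbp6 and Igfbp7 kept their direction and their side of the threshold under all 17 alternatives each, and Igf2r under 15 of 16. Leaving out 1 library at a time, the log2 fold change of Igf1 ranged from 2.91 to 3.21 and that of Igf1r from -0.40 to -0.36. With other size factors, filters and tools (RLE, upper quartile or total counts, DESeq2, limma-voom, a robust prior, other filters, GC and length trend removed), Igf1 ranged from 2.93 to 3.16. The same-numbered libraries showed no clear shared deviation (correlations of 0.10, -0.052 and 0.042, against -0.14 to 0.11 for differently numbered ones). With so few libraries this cannot exclude that the numbers mark pairs. With the replicate number as a block, the log2 fold change of Igf1 was 3.09 and 7300 genes were called in place of 7336. Total counts in place of size factors gave 4473 higher and 2891 lower calls (60.7% higher) in place of 3637 and 3699 (49.6%). The calls over all genes ranged from 6312 with DESeq2 to 7747 without a filter. Low counts limit Igf2r and Igfbp2.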
